A study of Homo sapiens with 6 samples.

Results

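MicroRNAs (miRNAs) are short RNAs, cut from a hairpin, that guide Argonaute proteins to messenger RNAs, mainly through the seed, bases 2 to 8. Their numbers follow the order of registration. High-numbered human entries come largely from deep sequencing surveys, and many lie inside other genes, have no known function or resemble fragments of other RNA. Exosomes are small vesicles that cells release and that carry such RNA. The 63 entries described here are all those numbered from miR-4251 to miR-4540 in a table of 1247 human miRNA entries, both arms included. The rule uses the number in the name and no count. Of the 63, 6 carry an arm (-5p or -3p) in their name.

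The table came from exosomes of H1299, a cell line derived from a human lung cancer of the non-small cell kind, with the genotype given as wild type. The control group stably expressed a control short hairpin RNA, and the shWDR4 group stably expressed one against WDR4, the non-catalytic subunit that works with METTL1 to methylate guanosine in RNA. Both groups spent 48 hours in medium freed of exosomes. Each group had 3 libraries, which the authors joined into 1 count column, so the spread between repeats is unknown and no p-value was computed. All groups come from a single cell line, and how many hairpins were used is not stated in the labels. The control column held 1020282 counts over 906 detected entries, and the shWDR4 column held 552913 over 1061. Levels are given as CPM, counts scaled to a column total of 1000000. Where an entry had no count, its true level may reach 3 counts, which is 2.94 CPM in control and 5.43 CPM in shWDR4. Intervals below are exact 95% intervals (Clopper-Pearson for shares, conditional on the summed count for folds) and cover counting error only. Values are shares of a column, so the number of vesicles, their RNA content and the level in the cells cannot be told apart. WDR4 itself is not a miRNA, so the knockdown was not checked here.

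Mature sequences from RefSeq (GRCh38.p14) matched 57 of the 63 names. RefSeq lists 201 mature names in this number range, and the other names had no row. The sequences of the members with the most counts are shown because they hold most of the signal. Each is printed 5′ to 3′ with the seed in capitals.
miR-4488: aGGGGGCGggcuccggcg
miR-4516: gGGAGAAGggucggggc
miR-4454: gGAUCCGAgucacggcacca
miR-4448: gGCUCCUUggucuaggggua
miR-4521: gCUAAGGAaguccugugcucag
miR-4497: cUCCGGGAcggcugggc
miR-4484: aAAAGGCGggagaagcccca
miR-4455: aGGGUGUGuguguuuuu
miR-4449: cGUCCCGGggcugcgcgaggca
miR-4492: gGGGCUGGgcgcgcgcc
miR-4443: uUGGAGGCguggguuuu

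The mature sequences of the block were short and rich in G. Of the 57 members with a sequence, 21 (36.8%) had fewer than 19 bases, 10 of them 17 bases and 11 of them 18. Among the 1058 other entries with a sequence, 20 (1.89%) were that short, so the block held 51.2% of the 41 entries under 19 bases. The members ranged from 17 to 23 bases, with a median of 20 against 22 for the other entries. Median G+C was 63.2% in the block and 56.5% in the other entries. The neighbouring block miR-4632 to miR-4804 had a median G+C of 63.6% and a median length of 22 bases, so it was alike in G+C and longer. G made up a median of 44.4% of the bases of the members, against 31.8% over the whole table. The median was 36.4% both in miR-4632 to miR-4804 and in miR-3000 to miR-3999.

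**Figure D1:**
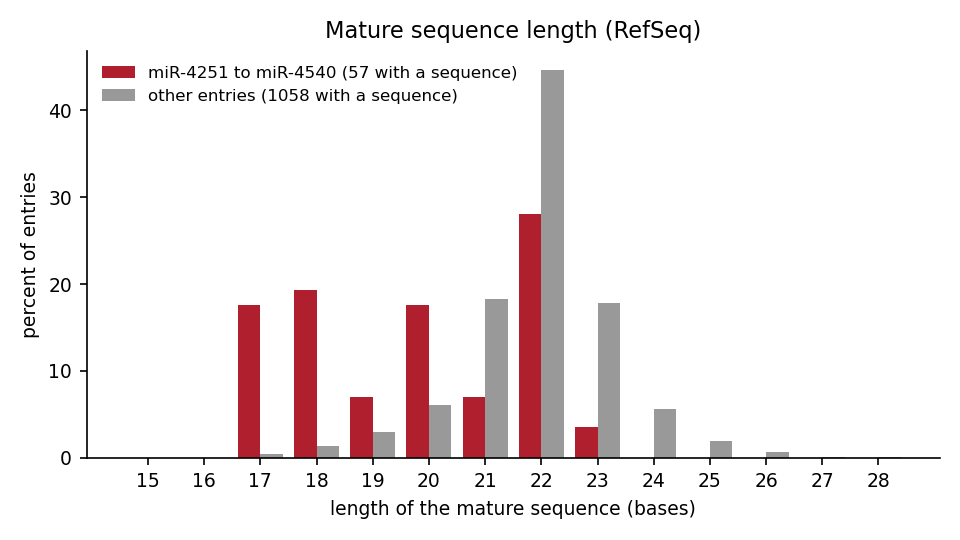
Percent of entries (vertical axis) at each mature length in bases (horizontal axis), for the 57 members with a sequence and the 1058 other entries. The members have a separate group of bars at 17 and 18 bases, where the other entries are almost empty.

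The block as a whole, like the blocks miR-3000 to miR-3999 and miR-4632 to miR-4804, took a larger share of the shWDR4 counts. Its counts summed to 2075 in control, 0.203% of the column (0.195 to 0.212), and to 6704 in shWDR4, 1.21% (1.18 to 1.24). The ratio of the shares was 5.96 (5.67 to 6.27). Part of the fold depends on the 3 entries that dominate the shWDR4 column, miR-3960, miR-6126 and miR-7704. With them left out of both column totals the shares were 0.205% and 1.93%, a ratio of 9.44. The sum was carried by few members, since 4 of them, miR-4488, miR-4516, miR-4454 and miR-4448, held 53.2% of the members' control counts and 69.5% of their shWDR4 counts. The ratio of shares was larger for miR-4632 to miR-4804, at 20.0 (19.2 to 20.8). For miR-3000 to miR-3999, which includes miR-3960, it was 3.19 (3.17 to 3.22). For let-7 and the entries numbered under 1000 it was 0.492 (0.489 to 0.494). No difference between these ratios was tested.

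Detection differed little from the table as a whole. At least 1 count was found for 43 members in control and 53 in shWDR4. Both columns held 33 members, while 10 had counts only in control and 20 only in shWDR4. Those 20 are 31.7% of the block, near the 27.3% of all 1247 entries detected in shWDR4 alone. The 10 are 15.9%, near the 14.9% of all entries detected in control alone. Depth did not favour shWDR4, and the control column thinned to the shWDR4 total would show 38.7 members. With 5 or more counts required, the order turned, with 28 members in control and 26 in shWDR4. That threshold is 4.90 CPM in the deeper control column and 9.04 CPM in shWDR4. Neither a thinned control nor a count over all entries was computed for it, so the turn cannot be set against the whole table. Most members were at the edge of detection, with a median of 8 counts over both columns, 35 of 63 under 10 counts and 11 with a single count.

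**Figure D2:**
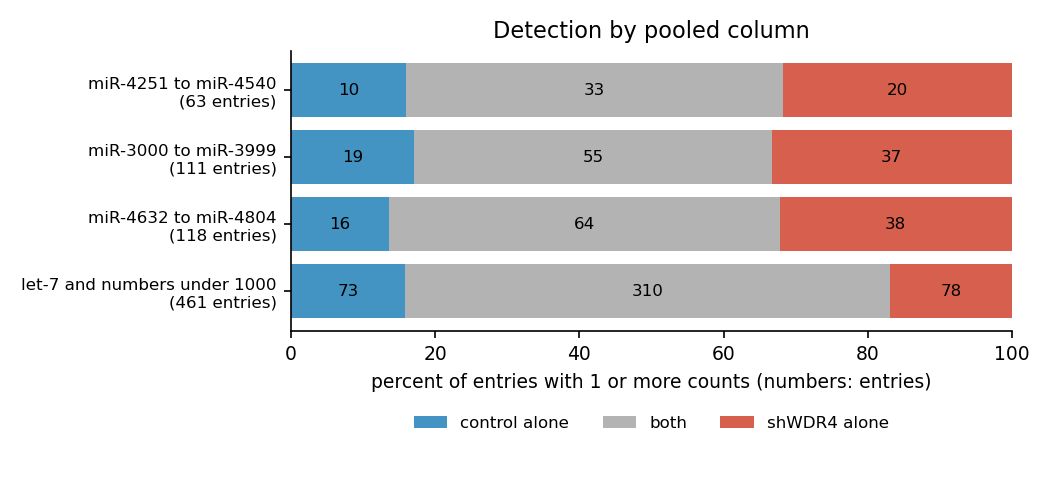
Percent of entries (horizontal axis) with counts in control alone, in both columns or in shWDR4 alone, for the miR-4251 to miR-4540 block, 2 other blocks of high numbers and the low-numbered entries; the numbers inside the bars count entries. The 3 high-numbered blocks have similar bars, with 20 of 63, 37 of 111 and 38 of 118 entries in shWDR4 alone, and the low-numbered entries have 78 of 461.

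Among the 13 members with 50 or more counts over both columns, 9 were at least 2-fold higher in shWDR4, 3 were lower by that factor or more and 1 lay between. Over all 349 entries with that depth, 26.1% passed 2-fold upward and 31.5% passed it downward. The median log2 fold (shWDR4 over control) was 2.85 for the 13 members and -0.37 for the 349 entries. The filter admitted miR-4521, miR-4443 and miR-4455 through their shWDR4 counts alone and miR-4449, miR-4492 and miR-4463 through their control counts alone, so these counts and medians describe the members and support nothing. In the neighbouring blocks, 8 of 12 evaluated entries of miR-4632 to miR-4804 and 9 of 22 of miR-3000 to miR-3999 were at least 2-fold higher. Of let-7 and the entries numbered under 1000, 25 of 212 were. No difference between the blocks was tested. The whole interval lay above 2-fold higher for 9 members, against 21.2% of the 349 entries, and below 2-fold lower for 1 member, also against 21.2%.

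**Figure D3:**
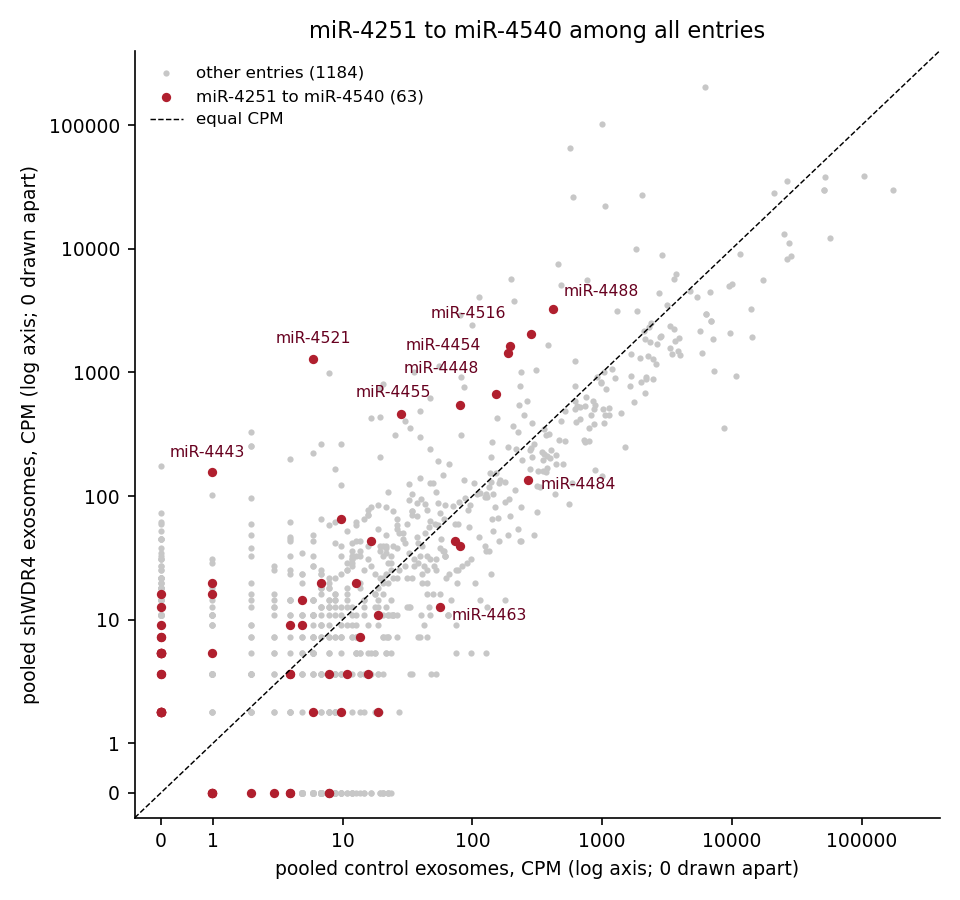
CPM in pooled shWDR4 exosomes (vertical, log axis) against CPM in pooled control exosomes (horizontal, log axis) for the 63 members and all other entries, with counts of 0 drawn apart and a dashed line at equal CPM. The 4 members with the most counts over both columns lie above the line, up to 3284 CPM in shWDR4 for miR-4488, miR-4521 lies far above it, and miR-4484 and miR-4463 lie below it.

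The 4 members with the most counts over both columns were all higher in shWDR4, by similar ratios. In control alone miR-4484, which was lower in shWDR4, stood above miR-4454 and miR-4448. For miR-4488 the count was 425 in control (417 CPM) and 1816 in shWDR4 (3284 CPM), 7.88-fold higher (7.09 to 8.78). It ranked 124 in control and 38 in shWDR4 among all entries. For miR-4516 the counts were 288 and 1127, 7.22-fold higher (6.34 to 8.25). These first 2 entries have 88.9% and 76.5% G+C.

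Next came 2 members of 20 bases. For miR-4454 the counts were 198 and 913, 8.51-fold higher (7.29 to 9.97). For miR-4448 they were 192 and 800, 7.69-fold higher (6.56 to 9.05). The intervals of all 4 folds overlap, so the 4 could not be ordered by fold.

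Lower in abundance, miR-4508 had 82 and 300 counts, 6.75-fold higher (5.27 to 8.73). The entry miR-4497 had 156 and 371, 4.39-fold higher (3.63 to 5.33). Its interval lay below those of miR-4488, miR-4516, miR-4454 and miR-4448 and touched that of miR-4508. By contrast miR-4455, with the lowest G+C of the evaluated members at 41.2%, had 29 and 255 counts and was 16.2-fold higher (11.03 to 24.7).

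The largest ratios belonged to members that were near the floor in control. The entry miR-4521 had 6 counts in control (5.88 CPM) and 704 in shWDR4 (1273 CPM), a ratio of 216.5 (99.0 to 592.0), and moved from rank 642 to rank 77. The entry miR-4443 had 1 count in control (0.980 CPM) and 87 in shWDR4 (157 CPM), a ratio of 160.5 (28.07 to 6413). Their intervals overlap, and the control count of miR-4443 is under the 3 counts that a 0 would allow. The upper ends of both intervals rest on these few control counts. Among the 13 members these 2 alone had fewer than 10 control counts.

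Of the 13 members, 4 were lower in shWDR4. For miR-4463 the counts were 57 and 7, 4.41-fold lower (2.01 to 11.5). For miR-4484 they were 276 and 74, 2.02-fold lower (1.56 to 2.65). For miR-4449 they were 82 and 22, also 2.02-fold lower (1.25 to 3.40). The entry miR-4492, with 75 and 24 counts, was 1.69-fold lower (1.06 to 2.81) and within 2-fold. The values of miR-4484 and miR-4449 sit at the 2-fold limit, and both lay inside it with trimmed-mean or median-ratio scaling and without miR-3960, which leaves 1 member lower. With upper-quartile scaling miR-4492 passed 2-fold too, which gives 4 lower members. The scalings tried shift every log2 fold by between -0.38 (upper quartile) and 0.66 (without the 3 dominant entries). With the latter the log2 fold of miR-4484 was -0.35. The 9 higher members were 9 with all 5 other scalings.

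**Figure D4:**
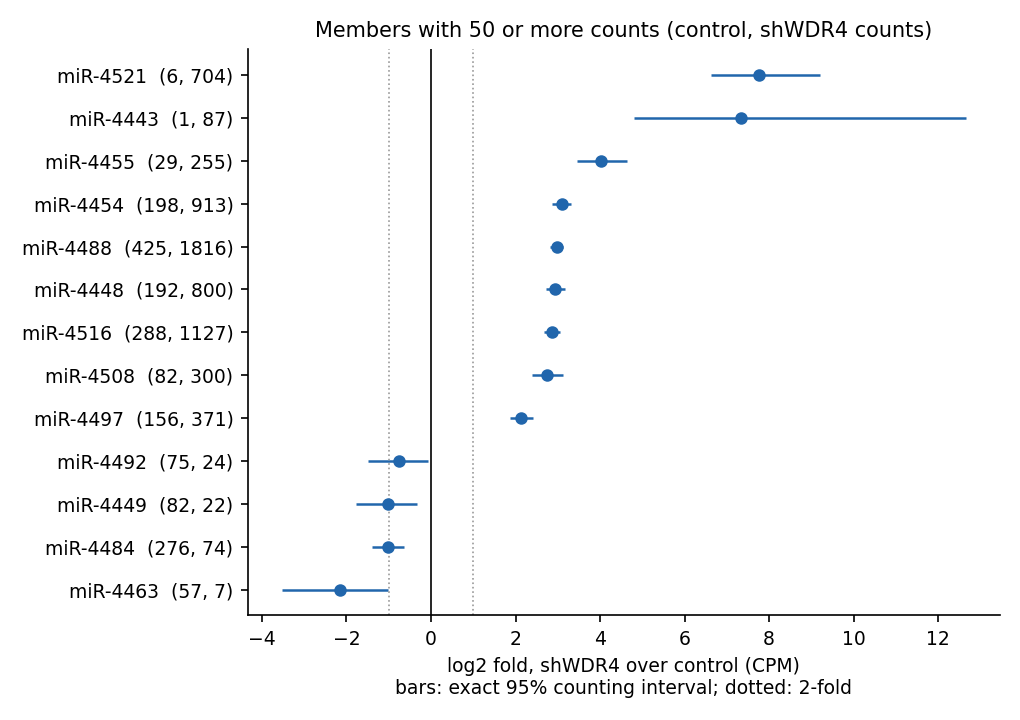
Log2 fold of CPM, shWDR4 over control (horizontal axis), for the 13 members with 50 or more counts, with their control and shWDR4 counts beside each name; points are the pooled values, bars the exact 95% counting intervals and dotted lines 2-fold. The intervals of miR-4521 and miR-4443 are wide and lie to the right, 6 of the other higher members lie between log2 folds of 2.13 and 3.09, and the 4 lower members lie between -2.14 and -0.76.

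In the authors' deposited table, 15 of the 63 members carried a mark as higher in shWDR4 (23.8%, against 15.4% of all entries) and 4 as lower (6.35%, against 10.8%). That mark required, per the file headers, a q-value under a fixed threshold together with a 2-fold difference, and belongs to a comparison of 2 pooled columns. Fewer than 50 counts lay behind 7 of the 19 marks in the authors' deposited table. They were miR-4298 with 10 and 36 counts, miR-4466 with 17 and 24, miR-4433a-5p with 1 and 11, miR-4433b-3p with 1 and 9, miR-4436b-5p with 0 and 9, and miR-4265 with 0 and 7, all higher, and miR-4257 with 19 and 1, lower. The authors' deposited table gave no fold for 25 members, none with more than 4 counts in a column. These 7 were named for the mark, after their values were seen.

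Members at 0 in a column carried little weight. At 0 in control, miR-4436b-5p had 9 counts in shWDR4, at least 5.54-fold higher than 3 counts over the group would give. On the same reckoning miR-4265, with 7 counts, was at least 4.31-fold higher, miR-4301, with 5, at least 3.08-fold, and miR-4326 and miR-4472, with 4 each, at least 2.46-fold. At 0 in shWDR4, miR-4442 and miR-4530 had 8 control counts each, at least 1.45-fold lower on that reckoning. That bound vanished without the 3 dominant entries. The share intervals of both members overlap between columns, at 0.000339% to 0.00154% in control and up to 0.000667% in shWDR4. All these bounds take the count above 0 as exact and leave out its counting error, so the differences may be smaller. The entries miR-4421 and miR-4451, with 4 control counts each, and miR-4537, with 3, gave no bound. In all, 22 members did not exceed 3 counts in either column and have no fold.

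Higher and lower members overlapped in base composition. The 8 higher members with 50 or more counts and a sequence had between 41.2% and 88.9% G+C. At the low end stood miR-4455 at 41.2%, miR-4443 at 52.9% and miR-4521 at 54.5%, and at the high end miR-4516 at 76.5%, miR-4497 at 82.4% and miR-4488 at 88.9%. The 4 lower members ran from miR-4484 at 60.0% through miR-4463 at 76.5% and miR-4449 at 81.8% to miR-4492 at 94.1%. The rank correlation of G+C with log2 fold was -0.55 over these 12 members and 0.59 over the 299 other evaluated entries with a sequence. No relation of composition to fold was tested. The filter on counts admitted 6 of these 12 through the column in which they are high, so their coefficient describes them and supports nothing.

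**Figure D5:**
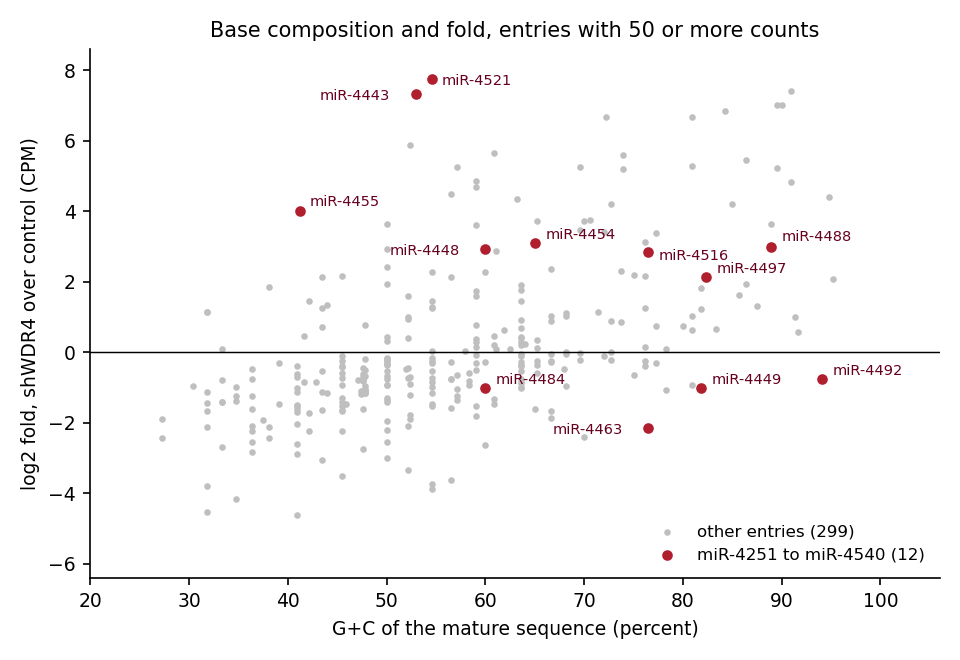
Log2 fold of CPM, shWDR4 over control (vertical axis), against the G+C percent of the mature sequence (horizontal axis), for entries with 50 or more counts: 12 members, named, and 299 other entries. The 8 higher members spread from 41.2% to 88.9% G+C and the 4 lower members from 60.0% to 94.1%, so their ranges overlap.

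The members came from scattered loci, many inside or opposite other genes. On GENCODE 29 (GRCh38), with each of the 57 members placed by its mature sequence and taken at its first locus, 23 lay in an intron of a gene on the same strand and 5 in an exon on the same strand. Another 13 lay in an intron and 3 in an exon of a gene on the opposite strand, and 13 overlapped no gene other than that of the miRNA. The 13 without an overlapping gene held 33.1% of the members' control counts and 56.4% of their shWDR4 counts. Their sums were 686 and 3783, a ratio of 10.2 (9.38 to 11.1). Of these, miR-4488 gave 425 and 1816, miR-4454 gave 198 and 913 and miR-4521 gave 6 and 704. All 5 of the 13 with 50 or more counts were at least 2-fold higher, against 26.1% of the 349 entries of that depth. Of the 5, miR-4521, miR-4443 and miR-4455 passed the filter through shWDR4 alone, so the count supports nothing. The 23 in same-strand introns summed to 337 and 895, a ratio of 4.90 (4.32 to 5.57), of which miR-4448 gave 192 and 800. The 5 in same-strand exons summed to 41 and 20, a ratio of 0.900 (0.4996 to 1.57). The 13 opposite introns summed to 663 and 1284, a ratio of 3.57 (3.25 to 3.93), of which miR-4516 gave 288 and 1127. The 3 opposite exons summed to 245 and 399, a ratio of 3.01 (2.56 to 3.54), of which miR-4497 gave 156 and 371. No difference between these classes was tested.

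The 5 evaluated members without an overlapping gene were miR-4488, miR-4454, miR-4521, miR-4455 and miR-4443. The mature miR-4521 lies on the plus strand of chromosome 17 at 8186948 to 8186969, 1364 bases from BORCS6, a subunit of a complex that positions lysosomes. The mature miR-4443 lies on the plus strand of chromosome 3 at 48196572 to 48196588, 8170 bases from CDC25A, a phosphatase that drives the cell cycle. The mature miR-4488 lies on the plus strand of chromosome 11 at 61508599 to 61508616, 184 bases from LRRC10B. The mature miR-4454 lies on the minus strand of chromosome 4 at 163093607 to 163093626, 16447 bases from NAF1, an assembly factor of box H/ACA ribonucleoproteins. The mature miR-4455 lies on the same chromosome and strand at 184938421 to 184938437, 80404 bases from HELT, a transcription repressor.

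Among the members within or opposite genes, both directions were seen. The mature miR-4516 lies on chromosome 16 at 2133120 to 2133136, opposite an intron of PKD1, which encodes polycystin-1. The mature miR-4497 lies on chromosome 12 at 109833350 to 109833366, opposite an exon of the calcium channel gene TRPV4. The mature miR-4448 lies on chromosome 3 at 183886860 to 183886879 in an intron of the pseudogene RPSAP31. Among the lower members, miR-4449 lies on chromosome 4 at 52712720 to 52712741 in an intron of DANCR, a long non-coding RNA, on its strand. The mature miR-4484 lies on chromosome 10 at 125819803 to 125819822 opposite an intron of UROS, a gene of heme synthesis. The mature miR-4463 lies on chromosome 6 at 75428446 to 75428462 opposite an intron of FILIP1. The mature miR-4492 lies on chromosome 11 at 118910765 to 118910781 opposite an exon of BCL9L, a co-activator of Wnt signalling. The transcripts of these genes were not measured.

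Some members were found at more than 1 locus or inside other transcripts. The mature sequences of miR-4435, miR-4436b-5p and miR-4436b-3p each have 2 loci, all on chromosome 2. Exact matches of 8 mature sequences stand in GENCODE transcripts of genes other than miRNA genes, some of which hold the member's own locus. Among them miR-4485-3p, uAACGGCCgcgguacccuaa, stands in the mitochondrial ribosomal RNA MT-RNR2 and in its nuclear copies MTRNR2L8 and MTRNR2L12, and miR-4284 stands in the mitochondrial transfer RNA MT-TF. An exon of MTRNR2L8 holds the locus of miR-4485-3p itself. Likewise exons of CYTOR, MIR4458HG and AC019294.3 hold a locus of miR-4435, miR-4458 and miR-4313, whose matches are these genes. Counts were 19 and 6 for miR-4485-3p, 1.72-fold lower (0.659 to 5.25 as a range of times lower), and 6 and 1 for miR-4284. Neither differed beyond counting error. The entry miR-4454 is reported to overlap a transfer RNA of the nuclear genome. Such RNA is not in the reference used, so this overlap was not checked for miR-4454 or for any other member. Without miR-4454 and miR-4485-3p the block's shares were 0.182% and 1.05%, a ratio of 5.75. On chromosome 14, miR-4537, miR-4507 and miR-4539 lie on the minus strand between 105857513 and 105859553, with counts of 3 and 0, 0 and 1, and 0 and 1.

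Seeds were rarely shared with older families. Of the 57 members with a sequence, 14 shared their seed with another entry of the table, and 5 of these with let-7 or a miRNA numbered under 1000. Only the 1115 entries with a matched sequence could be compared, so these counts may be too low. The sequences are set beside those of their partners to show the shared seed, in capitals, and how the rest of each sequence differs.
miR-4458: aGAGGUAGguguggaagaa
let-7a-5p: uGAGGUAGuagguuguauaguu
miR-4429: aAAAGCUGggcugagaggcg
miR-320b: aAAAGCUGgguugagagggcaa
miR-4466: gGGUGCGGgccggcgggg
miR-675-5p: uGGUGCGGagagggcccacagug
miR-4492: gGGGCUGGgcgcgcgcc
miR-4498: uGGGCUGGcagggcaagugcug
miR-762: gGGGCUGGggccggggccgagc

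The let-7 seed, that of a family that restrains growth, was carried by miR-4458 at 0 and 3 counts, beside 243972 and 21741 counts of the 9 let-7 and miR-98 entries with the same seed. Its 3 counts give no fold. The seed of miR-320b, miR-320c and miR-320d was carried by miR-4429 at 8 and 2 counts, 2.17-fold lower (0.433 to 20.95 as a range of times lower). Those 3 partners summed to 11405 and 2444 counts. The entry miR-320a-3p, with 25908 and 7292 counts, had no matched sequence, so its seed was not compared and the sums leave it out. At such depth miR-4429 could not be told from no difference or from the 3 partners. No such comparison was made for miR-4458.

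The seed of miR-762 was shared within the block by miR-4492 and miR-4498. Their pooled values differed in direction, with 75 and 24 counts for miR-4492 and 5 and 8 for miR-4498, 2.95-fold higher (0.852 to 11.5). The interval of the fold of miR-4492 was 0.357 to 0.946, so the intervals of these members overlap. The partner miR-762 had 6 and 24 counts, 7.38-fold higher (2.94 to 22.1), and miR-5001-5p 11 and 9. The intervals of miR-4492 and miR-762 do not overlap. The entry miR-4466 had 17 and 24 counts, 2.61-fold higher (1.34 to 5.17), and its partner miR-675-5p 4 and 0.

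The labelled cell type was read against epithelial markers and markers of other cells, and their part in the results above was not tested. Of 4 epithelial markers 3 had counts, which summed to 94 in control and 9 in shWDR4, and miR-200b-3p had no entry. Summed counts were 516 and 105 for the 3 red cell markers, with the defining miR-451a at 0 and 3. They were 196 and 45 for the 4 leukocyte markers, 10 and 3 for the 3 muscle markers and 2182 and 379 for the liver marker miR-122-5p. Every list had a lower summed CPM in shWDR4, the muscle list on few counts. Within the lists, miR-150-5p (23.5 CPM in control, 32.6 in shWDR4) and miR-451a (0 and 5.43 CPM) were higher in shWDR4.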

How the data were processed

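The authors deposited raw read counts per mature miRNA with 1 column per group, which per the file headers joins 3 libraries. The submitters' processing notes list edgeR, Bowtie, SAMtools, FastQC and Trim Galore but assign them no step. The following were not given in the sources used here: build and miRNA annotation, the counting of multiply matching reads and the use of molecular identifiers. Alongside the counts, the authors' deposited table gave a normalized log2 fold of control over shWDR4, a q-value and a mark. Recomputed from the counts, that log2 fold sets a 0 to 0.5 and subtracts 0.88, the log2 ratio of the column totals.

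Here counts were divided by column totals (CPM), and folds are shWDR4 over control. A 0 was replaced by 3 counts over the group. Entries with 50 or more counts over both columns were evaluated against a 2-fold difference. With 1 pooled value per group no test was run, so precision rests on the total counts of the columns alone. Intervals came from scipy 1.17.1 and scaling factors from edgeR 4.0.16 and DESeq2 1.42.0. Sequences came from RefSeq and gene overlaps from GENCODE 29, both on GRCh38, placed by the mature sequence.

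Named entries are those with 50 or more counts, the 5 with most counts at 0 in a column, ties included, those with a low-numbered seed, and miR-4454 and miR-4485-3p. The members and lists were chosen with earlier results of these data known.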

Additional observations from a re-analysis of the deposited data

How the results depend on the processing

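No paired analysis was possible because each group has 1 pooled column, and leaving out replicates was not run for the same reason. The 9 higher members of 13 were 9 under every scaling, at 4-fold and with whole intervals past 2-fold. They were 11 of 18 with a minimum of 20 counts and 8 of 9 with a minimum of 200. Over all evaluated entries, 26.1% were higher with column totals and between 21.8% and 33.5% with the other scalings. That share was 17.8% at 4-fold, 21.2% with whole intervals, 30.1% with a minimum of 20 counts and 23.1% with 200. The 3 lower members became 1 with trimmed-mean and median-ratio scaling, without miR-3960, without the 3 dominant entries, at 4-fold, with whole intervals and with a minimum of 200 counts. They became 4 with upper-quartile scaling and with a minimum of 20 counts. Of all evaluated entries, 31.5% were lower with column totals, 26.6% with trimmed-mean, 28.1% with median-ratio and 43.3% with upper-quartile scaling, 22.6% without miR-3960 and 14.0% without the 3 entries. The share lower was 10.9% at 4-fold, 21.2% with whole intervals, 30.7% with a minimum of 20 counts and 32.7% with 200. The median log2 fold of 2.85 was 3.01 with trimmed-mean, 2.96 with median-ratio and 2.47 with upper-quartile scaling, 3.18 without miR-3960 and 3.52 without miR-3960, miR-6126 and miR-7704. It was 2.43 with a minimum of 20 counts. With no minimum, 41 members over the floor gave 21 higher, 9 lower and a median of 1.21, and over all 949 such entries 35.7% were higher and 23.1% lower, with a median of 0. The shares of the block were 0.162% and 0.884% without miR-4488, 0.182% and 1.05% without miR-4454 and miR-4485-3p, and 1.93% in shWDR4 with the 3 dominant entries out of the total. Detection at 5 or more counts was 28 in control and 26 in shWDR4, and no such count was made over all entries. Of 127 recomputed folds of 24 named members, 20 left their main counting interval and none turned direction. For members at 0 in a column, a bound from 3 counts that crossed no difference was set to no difference, so it could not turn. Scaling moves all folds alike by its construction. For 50 members depth is under 50 counts, which sets what can be shown.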
